A study of Mus musculus with 8 samples.

Results

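Of 47069 genes in the deposited count tables, 8 are followed here: the trophoblast transcription factor genes Cdx2, Elf5, Tfap2c, Tfap2a, Gata3 and Tead4, the gap junction gene Gjb5, and the placental kinase gene Nrk. They were matched by mouse symbol to the Ensembl identifiers of the tables. The libraries hold poly-A RNA of embryonic stem (ES) cells of the mouse, in 4 groups of 2: cells lacking Pcgf3 (Pcgf3KO), cells lacking Pcgf5 (Pcgf5KO), cells lacking both genes (DKO), and unedited cells (WT). The knockouts were made with Cas9, every group was of strain C57BL/6, and every group grew in serum with leukemia inhibitory factor on a layer of mitomycin-C treated mouse embryonic fibroblasts. Whether a knockout group is 1 clone or several, and whether its libraries came from separate cultures, is not given in the sources used here, so p-values measure only the spread between these libraries.

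Trophoblast is the outer lineage of the early embryo and gives rise to the placenta. Tead4, a partner of the Hippo pathway coactivator Yap1, acts upstream of Cdx2 and Gata3 in the outer cells of the mouse embryo, and Cdx2, Elf5, Tfap2c and Gata3 hold trophoblast stem cells in their state, while ES cells normally keep most of this programme low. Pcgf3 and Pcgf5 encode RING finger subunits of variant Polycomb complexes, a family of repressors that modify histones. Gjb5 encodes a connexin, a channel subunit through which neighbouring cells exchange small molecules, and it is known for its expression in the mouse placenta. Nrk is an X-linked kinase gene of the Ste20 type that acts in the spongiotrophoblast of the mouse placenta.

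The 7 complete tables held 12652616 to 19923964 counts each. For WT replicate 1 the table at hand ends after 8093 genes, 17.2% of the list, and of the 8 genes it covers Tfap2c and Nrk. The values below therefore come from 7 libraries, in which WT is replicate 2 alone; its spread is assumed to equal that of the knockout groups, and differences from WT are unreplicated on that side except where WT replicate 1 is named. Pcgf3 itself had 66.1 and 60.5 CPM, counts scaled to library size, in Pcgf3KO and 86.6 and 67.2 CPM in DKO, against 109.7 CPM in WT. Pcgf5 had 12.3 and 9.06 CPM in Pcgf5KO, with 13.5 and 13.9 CPM in DKO, against 20.7 CPM in WT. Transcripts of both genes thus remained in the libraries labelled as knockouts, and which bases were deleted is not given in the sources used here. The fall was past the threshold for Pcgf3 in Pcgf3KO (adjusted p = 0.021, edgeR) and Pcgf5 in Pcgf5KO (adjusted p = 0.0292), and not for Pcgf3 or Pcgf5 in DKO (adjusted p = 0.0899 and 0.114).

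Gjb5 was higher in Pcgf3KO and in DKO than in WT, Nrk was lower than WT in every knockout group, and Cdx2, at a very low level throughout, was lower in DKO. A gene was called at an adjusted p of at most 0.05 over the 15669 genes tested (edgeR quasi-likelihood test, two-sided, Benjamini-Hochberg). Against WT, 2 of the 8 genes were called in Pcgf3KO, where 2.36% of all genes tested were called. In Pcgf5KO, 1 of the 8 was called against a background of 2.99%, and in DKO 3 of the 8 against a background of 3.22%. The median log2 fold change of the 8 genes against WT was -0.22 in Pcgf3KO, -1.0 in Pcgf5KO and -0.57 in DKO, beside medians of 0.002, 0.005 and 0.014 over all genes tested. All libraries of the knockout lay on 1 side of the WT library for 7 of the 8 genes in Pcgf3KO, 8 in Pcgf5KO and 6 in DKO, but so they did for 80.9%, 82.8% and 69.6% of all genes tested. These comparisons share the WT library and are therefore not independent of each other. Between knockouts, 1 of the 8 was called in DKO against Pcgf3KO (background 1.74%), 2 in DKO against Pcgf5KO (2.28%) and 1 in Pcgf5KO against Pcgf3KO (0.14%). The groups did not overlap for 4, 5 and 7 of the 8 genes in these comparisons, beside 46.5%, 55% and 53.9% of all genes tested.

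**Figure D1:**
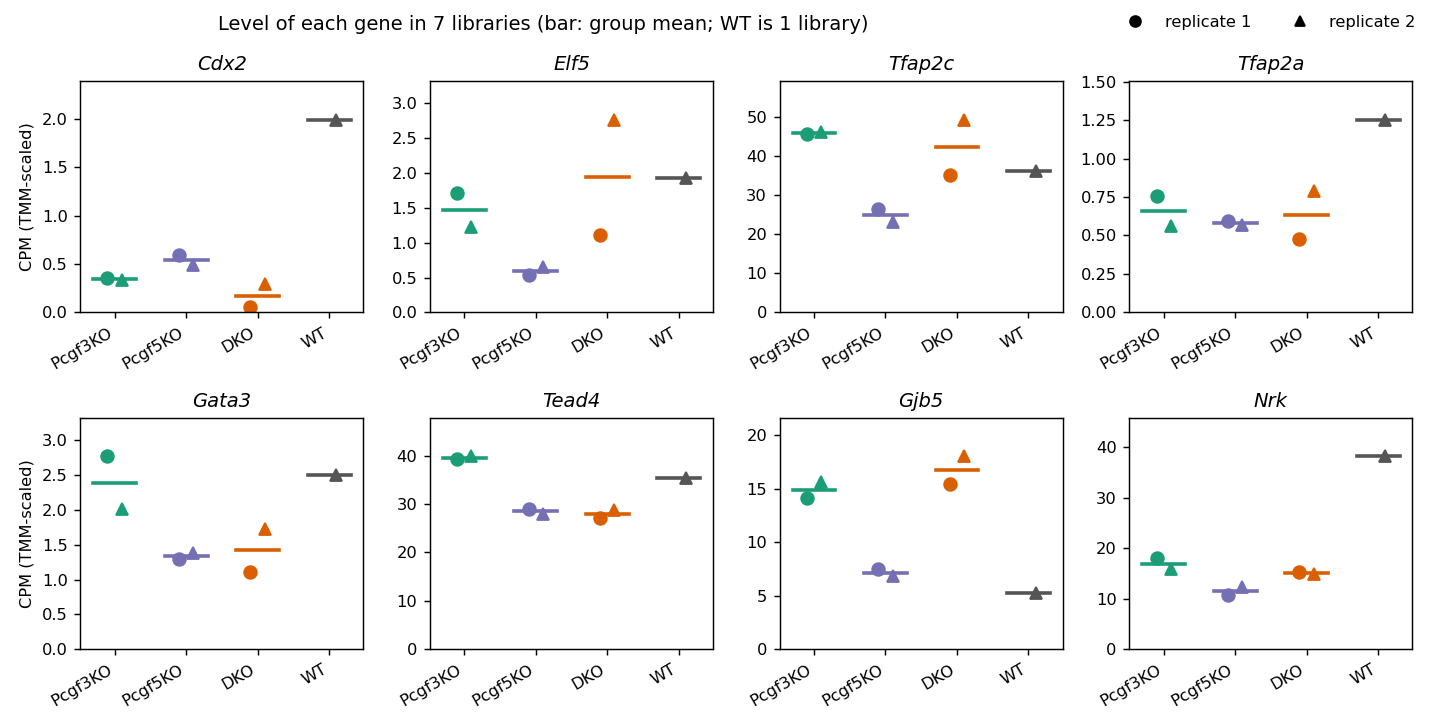
Level of each of the 8 genes in CPM (y axes, each from 0) in every library of Pcgf3KO, Pcgf5KO, DKO and WT (x axes), 1 point a library with a bar at the group mean; WT is 1 library. Gjb5 is lowest in WT at 5.24 CPM, and Nrk is highest there at 38.2 CPM.

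**Figure D2:**
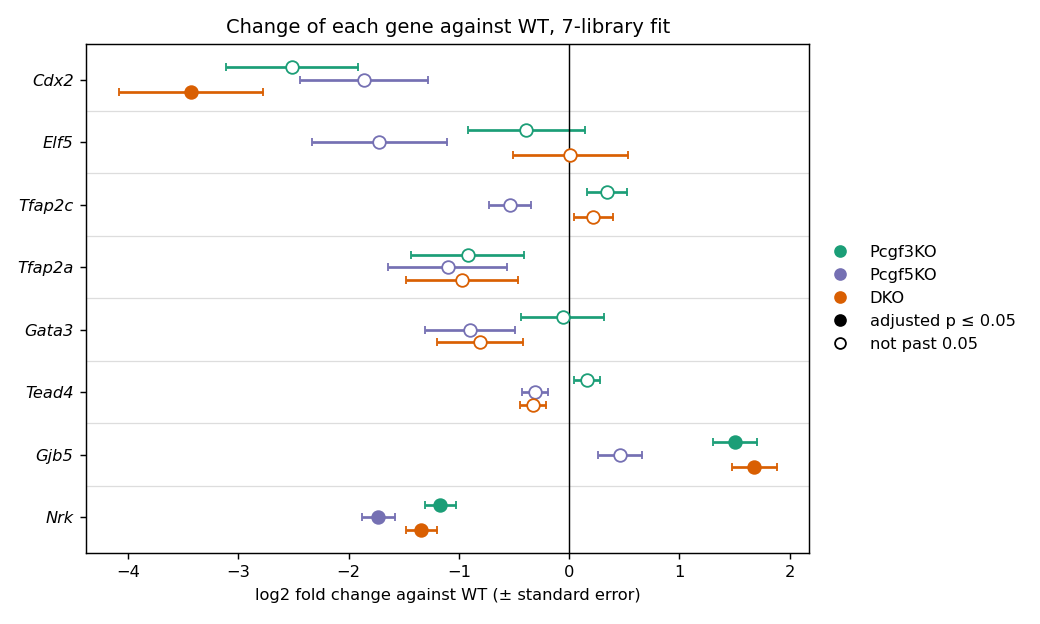
Log2 fold change against WT (axis in log2 units) of the 8 genes in Pcgf3KO, Pcgf5KO and DKO, with standard errors as bars and filled symbols for changes past the threshold. Gjb5 is the gene with changes past the threshold above 0, and Nrk lies below 0 past the threshold in all 3 knockout groups.

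The 3 genes called against WT differ in the sequence around their start. Their promoter windows, which run from 250 bases before to 50 bases after the start of transcription in RefSeq (GRCm38.p6), are shown because the CpG dinucleotides that Polycomb-bound promoters are usually rich in differ among them. The windows are chr4:127358115-127358414 on the minus strand for Gjb5, chrX:138914180-138914479 on the plus strand for Nrk and chr5:147307200-147307499 on the minus strand for Cdx2, each written 5′ to 3′. Capitals mark matches to GCCNNNGGC, the letters recognised by AP-2 factors such as Tfap2c, and to TTTATNG, those recognised by Cdx2; both strands were searched, and the 2 motifs do not overlap here.
Gjb5 promoter: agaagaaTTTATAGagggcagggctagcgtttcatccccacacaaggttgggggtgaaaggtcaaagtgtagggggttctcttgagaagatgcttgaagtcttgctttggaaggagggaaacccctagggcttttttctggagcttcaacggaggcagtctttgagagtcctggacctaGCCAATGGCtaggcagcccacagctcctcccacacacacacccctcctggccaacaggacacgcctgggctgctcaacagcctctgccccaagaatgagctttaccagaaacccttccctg
Nrk promoter: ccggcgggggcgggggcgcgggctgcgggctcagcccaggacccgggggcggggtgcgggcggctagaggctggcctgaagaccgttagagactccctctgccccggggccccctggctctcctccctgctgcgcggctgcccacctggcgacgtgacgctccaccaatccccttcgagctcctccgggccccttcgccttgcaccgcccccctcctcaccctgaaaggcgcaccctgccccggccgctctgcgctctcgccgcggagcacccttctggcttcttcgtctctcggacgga
Cdx2 promoter: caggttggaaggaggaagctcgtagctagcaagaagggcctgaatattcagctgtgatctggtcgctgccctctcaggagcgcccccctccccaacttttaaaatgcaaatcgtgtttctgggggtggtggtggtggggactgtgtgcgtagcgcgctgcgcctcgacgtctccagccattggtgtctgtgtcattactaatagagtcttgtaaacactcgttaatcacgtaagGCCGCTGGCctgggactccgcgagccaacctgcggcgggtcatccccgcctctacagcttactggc

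The Nrk window held 31 CpG dinucleotides at 74.7% G and C, the Cdx2 window 18 at 57.3%, and the Gjb5 window 3 at 54.3%. The median over 32851 mouse promoter windows was 7 CpG at 52.7% G and C. The ratio of observed CpG to that expected from base composition was 0.75 for Nrk, 0.73 for Cdx2 and 0.14 for Gjb5, against a median of 0.38. An AP-2 match lay at bases 180 to 188 of the Gjb5 window and at bases 235 to 243 of the Cdx2 window, and a CDX match at bases 8 to 14 of the Gjb5 window. Of all windows, 16.6% held the AP-2 letters and 10.9% the CDX letters, and 14.7% held GGAATG, the letters recognised by TEAD factors, which were in none of these 3 windows. Of the other members, Elf5, Tfap2a and Gata3 had windows in the table. Gata3 had 22 CpG and 3 AP-2 matches in its window, and Elf5 had 3 CpG in one of its windows, which held a TEAD match, and 10 in the other. No binding or histone data stand beside these windows here, and a match to letters is a description of the sequence.

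Gjb5 lies on chromosome 4 (mm10, 127354809 to 127358181, minus strand) as a protein-coding gene of 2 merged exons. It had 14.1 and 15.6 CPM in Pcgf3KO, 7.46 and 6.87 CPM in Pcgf5KO, with 15.5 and 18.0 CPM in DKO, against 5.24 CPM in WT. The Pcgf3KO and DKO libraries all lay above both Pcgf5KO libraries and WT, while Pcgf3KO and DKO overlapped. Relative to WT, Gjb5 rose 2.83-fold in Pcgf3KO (log2 1.50 ± 0.20, SE; adjusted p = 0.00557) and 3.20-fold in DKO (1.68 ± 0.20; adjusted p = 0.00274). In Pcgf5KO the log2 difference from WT was 0.46 ± 0.20 and did not pass the test (adjusted p = 0.26). The difference between the single knockouts was itself past the threshold: Pcgf5KO was lower than Pcgf3KO by a log2 fold change of -1.05 ± 0.15 (adjusted p = 0.0417). DKO was 2.33-fold above Pcgf5KO (1.22 ± 0.15; adjusted p = 0.0112), and DKO against Pcgf3KO gave 0.18 ± 0.14 (adjusted p = 0.513). Because whole cultures were sequenced, a change in the number of cells of a type and a change in RNA per cell cannot be told apart, here and below. The call in DKO against WT held in every alternative run, all with WT replicate 2 as the only WT library. They could therefore not test the dependence on that library. The call in Pcgf3KO was lost without Pcgf3KO replicate 2 (adjusted p = 0.0695), and the calls between knockouts were lost when any 1 of the 4 single-knockout libraries was left out (adjusted p = 0.053 to 0.761).

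Gja1, the connexin gene that most embryonic cells use, did not pass the test in any knockout. Its log2 fold change was -0.33 ± 0.11 in Pcgf3KO, -0.17 ± 0.11 in Pcgf5KO and 0.03 ± 0.11 in DKO (adjusted p = 0.158, 0.418 and 0.888). The difference between Gjb5 and Gja1 was not tested.

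Nrk, on the X chromosome (mm10, 138914430 to 139010532, plus strand, 30 merged exons), was lower than WT in each knockout group. It had 18.0 and 15.9 CPM in Pcgf3KO, 10.8 and 12.4 CPM in Pcgf5KO, with 15.2 and 14.97 CPM in DKO, against 38.2 CPM in WT. No knockout library came near the WT level, and within the knockouts the order was Pcgf3KO, DKO, Pcgf5KO with no overlap. Nrk fell to 0.444 of WT in Pcgf3KO (log2 -1.17 ± 0.14; adjusted p = 0.00426), to 0.302 in Pcgf5KO (-1.73 ± 0.15; adjusted p = 0.000997) and to 0.395 in DKO (-1.34 ± 0.14; adjusted p = 0.00201). Neighbours in that order did not differ past the threshold (DKO against Pcgf3KO -0.17 ± 0.13, adjusted p = 0.493; DKO against Pcgf5KO 0.39 ± 0.13, adjusted p = 0.115). Pcgf5KO against Pcgf3KO gave -0.56 ± 0.13 (adjusted p = 0.255).

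Nrk is also listed for WT replicate 1, so both WT libraries can be set against the knockouts over the genes of that table. On that scale, CPM relative to the counts of the shorter list, Nrk had 101.6 and 89.7 in Pcgf3KO, 60.4 and 69.2 in Pcgf5KO, with 86.1 and 84.7 in DKO, against 176.9 and 215.5 in WT. Both WT libraries lay above every knockout library, and groups did not overlap for 56.2%, 60.2% and 48.2% of the genes of that fit in Pcgf3KO, Pcgf5KO and DKO against WT. The log2 fold changes were -1.03 ± 0.13 in Pcgf3KO (adjusted p = 0.00111), -1.60 ± 0.14 in Pcgf5KO (adjusted p = 0.000134) and -1.20 ± 0.13 in DKO (adjusted p = 0.000561). Of the 2 members in that fit, Nrk was called in Pcgf3KO and DKO, and Nrk and Tfap2c in Pcgf5KO, beside backgrounds of 5.51%, 8.11% and 8.62%. With WT replicate 1 in place of WT replicate 2, Nrk remained called in each knockout (adjusted p = 0.0214, 0.00386 and 0.00852 in Pcgf3KO, Pcgf5KO and DKO). In the 7-library fit the call in Pcgf3KO was lost without Pcgf3KO replicate 2 (adjusted p = 0.0747), and those in Pcgf5KO and DKO held in every alternative run.

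The DKO change of Nrk was smaller than the sum of the single changes. This interaction, added after seeing the data, was 1.56 ± 0.19 on the log2 scale (adjusted p = 0.00568), where 3.79% of genes tested were past the threshold, and with both WT libraries it was 1.44 (adjusted p = 0.00284). It was lost without Pcgf3KO replicate 2 (1.47, adjusted p = 0.0621) or Pcgf5KO replicate 1 (1.46, adjusted p = 0.071). The other 7 genes did not pass this test; Elf5 gave 2.12 ± 0.75 (adjusted p = 0.139).

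Cdx2, the homeobox factor that specifies trophectoderm, was close to the limit of counting. On chromosome 5 (mm10, 147300805 to 147307270, minus strand), it had 7 and 6 counts in Pcgf3KO, 10 and 6 in Pcgf5KO, with 1 and 6 in DKO, against 35 in WT. In CPM these were 0.353 and 0.336 in Pcgf3KO, 0.592 and 0.485 in Pcgf5KO, with 0.0527 and 0.297 in DKO, against 1.99 in WT. WT lay above every knockout library, and the gene passed the filter on low counts through WT and 1 Pcgf5KO library, past a cutoff of 0.553 CPM. Cdx2 fell in DKO by a log2 fold change of -3.43 ± 0.65 (adjusted p = 0.0256). In Pcgf3KO the difference was -2.51 ± 0.60 (adjusted p = 0.0642) and in Pcgf5KO -1.86 ± 0.58 (adjusted p = 0.133). DKO against Pcgf3KO gave -0.93 ± 0.73 and DKO against Pcgf5KO -1.58 ± 0.71 (adjusted p = 0.522 and 0.195). The DKO call rests on 1 WT library, since Cdx2 is not listed for WT replicate 1. It was lost when any 1 of the 4 single-knockout libraries was left out (adjusted p = 0.0707 to 0.0737), DESeq2 gave it no adjusted p, and the log2 value was -2.72 without DKO replicate 1 and -5.06 without DKO replicate 2.

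Markers of feeder fibroblasts and primitive endoderm mostly moved in the direction of Nrk and Cdx2. Mesoderm sums were also below the 67.19 CPM of WT, to which Kdr, described below, gave 30.5 CPM. They were 32.83 to 35.47 CPM in Pcgf3KO, 37.47 to 44.32 in Pcgf5KO and 27.35 to 42.85 in DKO. Germ cell genes did not move in that direction. Their sums were 98.37 to 100.6 CPM in Pcgf3KO, 84.81 to 85.32 in Pcgf5KO and 64.82 to 67.26 in DKO, against 64.23 in WT. Surface ectoderm sums, given below, were above WT in Pcgf3KO and Pcgf5KO. These sums rest on few genes. Ddx4 and Dppa3, at 29.4 and 22.9 CPM, made up most of the germ cell sum in WT. Grhl3, at 11.8 CPM, made up most of the surface ectoderm sum there. Of 18 feeder fibroblast markers, 15 passed the filter. Of these, 4 were lower in Pcgf3KO, 1 in Pcgf5KO and 4 in DKO, where 2.36%, 2.99% and 3.22% of all genes were called. Their summed level was 117.5 to 129.4 CPM in Pcgf3KO, 149.4 to 153.2 in Pcgf5KO and 123.4 to 153.2 in DKO, against 203.8 in WT, with 0 to 1 of the 18 markers (Postn or Twist2) at 0 counts in each library. All 10 primitive endoderm genes passed, with 4 lower in Pcgf3KO, 4 lower in Pcgf5KO and 3 lower in DKO, beside the same shares. Their sums were 502.6 to 521.3, 503.9 to 524.2 and 549.1 to 614.4 CPM, against 865.1 in WT. None of the 10 was at 0 in any library. Most of the WT sum came from the basement membrane genes Lamb1, Lama1, Col4a1 and Col4a2, at 307.7, 226.6, 200.4 and 114.4 CPM. There Gata4, Gata6, Sox17, Sox7, Dab2 and Pdgfra had 0.74 to 9.28 CPM, so the sum hardly depends on them. The part of feeder, primitive endoderm or mesoderm cells in the levels of Nrk, Cdx2 and the other genes described here was not tested. Of the feeder markers, Col1a1 was called lower in each knockout, with log2 fold changes of -1.46, -1.09 and -1.4 in Pcgf3KO, Pcgf5KO and DKO. Col1a2 was called lower in Pcgf3KO (-1.29) and DKO (-1.72), and gave -0.24 in Pcgf5KO. Acta2 was called lower in Pcgf3KO (-1.06) and gave -0.42 in Pcgf5KO. The single-knockout calls of these genes were lost without either library of the group. The most abundant feeder markers Tagln, Col5a1, Mmp2 and Thy1 did not move as 1 block in DKO. Against WT they gave -0.54, -0.66, -0.77 and -0.56 in Pcgf3KO, and -0.34, -0.34, -0.54 and -0.22 in Pcgf5KO. Of these values, that of Mmp2 in Pcgf3KO alone passed the test (edgeR, adjusted p = 0.0183). This call was lost when any 1 of the 4 single-knockout libraries was left out. In DKO, Tagln and Acta2 fell, with log2 fold changes of -1.58 and -3.67 (adjusted p = 0.000578 and 0.000563), whereas Col5a1, Mmp2 and Thy1 gave -0.05, -0.21 and 0.49 there (adjusted p = 0.879, 0.421 and 0.27). The endoderm basement membrane gene Col4a1 fell, with log2 fold changes of -1.58, -1.49 and -0.91 in Pcgf3KO, Pcgf5KO and DKO (adjusted p = 0.000877, 0.00115 and 0.00717).

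Among the AP-2 factors, Tfap2c, which trophoblast and germ cells both use, was the well expressed one. It lies on chromosome 2 (mm10, 172549593 to 172558622, plus strand) and had 45.7 and 46.1 CPM in Pcgf3KO, 26.4 and 23.2 in Pcgf5KO, with 35.2 and 49.3 in DKO, against 36.3 in WT. Both Pcgf5KO libraries lay below every other library, and the DKO libraries lay on either side of WT. DKO was 1.70-fold above Pcgf5KO (log2 0.76 ± 0.15; adjusted p = 0.0428), and Pcgf5KO against Pcgf3KO gave -0.88 ± 0.15 (adjusted p = 0.0906). Against WT, Tfap2c gave 0.34 ± 0.18 in Pcgf3KO, -0.54 ± 0.19 in Pcgf5KO and 0.22 ± 0.18 in DKO (adjusted p = 0.425, 0.16 and 0.547). With WT replicate 1 included, on the scale of the shorter list, the values were 257.1 and 260.4 in Pcgf3KO, 148.1 and 129.9 in Pcgf5KO, with 198.7 and 278.9 in DKO, against 210.3 and 204.6 in WT. In that fit the Pcgf5KO difference from WT passed the test, at -0.57 ± 0.15 (adjusted p = 0.0363), as did Pcgf5KO against Pcgf3KO (-0.89 ± 0.15; adjusted p = 0.0416; background 0.185%) and DKO against Pcgf5KO (0.78 ± 0.15; adjusted p = 0.0374; background 2.37%). In the 7-library fit the DKO call against Pcgf5KO was lost when any 1 of the 4 single-knockout libraries was left out (adjusted p up to 0.392), and with WT replicate 1 in place of replicate 2 (adjusted p = 0.0777).

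Tfap2a, the AP-2 factor of surface ectoderm and neural crest, was near the limit of counting, with 15 and 10 counts in Pcgf3KO, 10 and 7 in Pcgf5KO, with 9 and 16 in DKO, against 22 in WT. Its CPM were 0.756 and 0.559 in Pcgf3KO, 0.592 and 0.566 in Pcgf5KO, with 0.474 and 0.791 in DKO, against 1.25 in WT. WT lay above all knockout libraries, and the knockout groups overlapped. None of the differences from WT passed the test: -0.92 ± 0.51 in Pcgf3KO, -1.10 ± 0.54 in Pcgf5KO and -0.97 ± 0.51 in DKO (adjusted p = 0.438, 0.301 and 0.337). The gene lies on chromosome 13 (mm10, 40715675 to 40733823, minus strand), and 3 antisense genes overlap 1.5% to 7.8% of its exon bases. Strand is not marked by the library kit, and reads of the overlap cannot be assigned, but the 1 of the 3 that the tables list, Gm26688, had 0 counts in each of the 7 libraries.

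Tead4, the DNA-binding partner of Yap1 and Wwtr1, was lower in DKO than in Pcgf3KO. It lies on chromosome 6 (mm10, 128224288 to 128300823, minus strand) and had 39.3 and 39.9 CPM in Pcgf3KO, 28.9 and 28.0 in Pcgf5KO, with 27.1 and 28.9 in DKO, against 35.3 in WT. The Pcgf3KO libraries lay above WT, and the Pcgf5KO and DKO libraries, which overlapped each other, lay below it. DKO stood at 0.708 of Pcgf3KO (log2 -0.50 ± 0.09; adjusted p = 0.035), a call lost when any 1 of the 4 single-knockout libraries was left out (adjusted p up to 0.396). Against WT, Tead4 gave 0.16 ± 0.12 in Pcgf3KO, -0.31 ± 0.12 in Pcgf5KO, with -0.33 ± 0.12 in DKO; none passed (adjusted p = 0.555, 0.192 and 0.164).

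Of the Hippo pathway genes around Tead4, the angiomotin genes Amot and Amotl2 fell in each knockout. They encode junction proteins that hold Yap1 out of the nucleus. Amot had 27.6 and 24.5 CPM in Pcgf3KO, 26.0 and 29.0 in Pcgf5KO, with 20.8 and 21.1 in DKO, against 54.1 in WT. It fell, with log2 fold changes of -1.05, -0.98 and -1.37 in Pcgf3KO, Pcgf5KO and DKO (adjusted p = 0.00391, 0.00532 and 0.000925). Amotl2 fell likewise (-0.78, -0.80 and -0.84; adjusted p = 0.0051, 0.00429 and 0.00288), and Amotl1 fell in Pcgf5KO (-0.57) and in DKO (-0.62) (adjusted p = 0.0263 and 0.0155). The kinase gene Lats2, named after its values were seen, fell in Pcgf3KO and Pcgf5KO (-1.15 and -1.18; adjusted p = 0.034 and 0.0317), and its DKO value of -0.62 did not pass (adjusted p = 0.18). Nf2, an activator of the pathway, rose by 0.55 in Pcgf3KO and 0.41 in DKO (adjusted p = 0.0147 and 0.0387).

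In all, 17 of 17 listed Hippo genes passed the filter. In Pcgf3KO 1 was higher and 3 lower, in Pcgf5KO 4 lower, and in DKO 1 higher and 3 lower. The shares called over all genes tested were 2.36%, 2.99% and 3.22%. The median log2 fold change of the Hippo genes was -0.23, -0.26 and -0.14 in that order, beside 0.002, 0.005 and 0.014 over all genes tested. The other TEAD genes Tead1, Tead2 and Tead3 and the coactivator genes Yap1 and Wwtr1 were not past the threshold in any knockout (lowest adjusted p = 0.0508, Tead2 in Pcgf3KO at -0.55 ± 0.12). The DKO calls of Amot and Amotl2 held in every alternative run, all with WT replicate 2 as the only WT library. Amot was lost in Pcgf3KO without replicate 2 of that group (adjusted p = 0.0746) and in Pcgf5KO without either of its libraries (0.111 and 0.058). Amotl2 was lost in each single knockout without either of that group's libraries (adjusted p = 0.069 to 0.0998). Amotl1, Lats2 and Nf2 were lost when any 1 of the 4 single-knockout libraries was left out (adjusted p up to 0.277), and Nf2 in DKO also with WT replicate 1 in place of replicate 2 (0.075).

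Gata3 and Elf5 were low in ES cells of every group, and with the 7 libraries neither was called in any comparison. Gata3, the zinc finger factor that acts beside Cdx2 in trophectoderm, lies on chromosome 2 (mm10, 9857078 to 9890034, minus strand). It had 2.77 and 2.01 CPM in Pcgf3KO, 1.30 and 1.38 in Pcgf5KO, with 1.11 and 1.73 in DKO, against 2.51 in WT. The Pcgf5KO and DKO libraries lay below the other 3. The differences from WT were -0.06 ± 0.38 in Pcgf3KO, -0.90 ± 0.41 in Pcgf5KO and -0.81 ± 0.39 in DKO (adjusted p = 0.962, 0.26 and 0.29). Without DKO replicate 2, Gata3 was called lower in DKO than in WT (-1.17, adjusted p = 0.027) and than in Pcgf3KO (-1.12, adjusted p = 0.0164), in fits that called 34.5% and 35.8% of all genes. The 2 genes that overlap 1.9% and 3.9% of its exon bases had at most 1 count in any library.

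Elf5, an ETS factor of trophoblast stem cells whose promoter is methylated in ES cells, lies further along chromosome 2 (mm10, 103411688 to 103450989, plus strand). It had 1.71 and 1.23 CPM in Pcgf3KO, 0.533 and 0.647 in Pcgf5KO, with 1.11 and 2.77 in DKO, against 1.94 in WT. The DKO libraries lay on either side of WT, with 21 and 56 counts, and both Pcgf5KO libraries were the lowest of the 7. Against WT the log2 differences were -0.39 ± 0.53 in Pcgf3KO, -1.72 ± 0.61 in Pcgf5KO and 0.01 ± 0.52 in DKO (adjusted p = 0.791, 0.175 and 0.993). DKO against Pcgf5KO, at 1.73 ± 0.52, came nearest the threshold (adjusted p = 0.0919). With no filter on low counts, Elf5 was called in Pcgf5KO against WT and in DKO against Pcgf5KO (adjusted p = 0.0109 and 0.000944). In these comparisons 4.8% and 9.07% of all genes were called. When each library was left out in turn, Elf5 in Pcgf5KO against WT gave -1.85 to -1.57.

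Per kilobase of exon, the 8 genes fell into high and low members of this set. The mean over the 7 libraries was 10.2 CPM per kb for Tfap2c, 9.03 for Tead4 and 6.87 for Gjb5, with Nrk between at 1.95, and 0.46 for Gata3, 0.26 for Cdx2, 0.242 for Elf5 and 0.145 for Tfap2a. Among genes tested, Tfap2c stood at the 66.3rd percentile of mean level and Cdx2 at the 8.2nd, both in CPM. Across the 7 libraries, the pairs of members with the highest Pearson correlation of log2 CPM were Gata3 with Tead4 (0.87), Elf5 with Tfap2c (0.85) and Tfap2a with Nrk (0.84), and Cdx2 with Gjb5 gave -0.80. These 7 points share 4 groups, and such values describe these libraries alone.

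Among close relatives of the 8 genes, Mink1 and Elf4 were called against WT. Of 18 listed paralogs, 15 passed the filter; 1 was higher and 1 lower in Pcgf5KO, and 1 higher in DKO, where 2.99% and 3.22% of all genes were called. In Pcgf3KO edgeR called 0 and DESeq2 1, and 4 had an unadjusted p under 0.05 in edgeR. Mink1, a Ste20-type kinase gene related to Nrk, rose by 0.55 ± 0.11 in Pcgf5KO and by 0.64 in DKO (adjusted p = 0.0318 and 0.0161), while Nrk fell there. Elf4, an ETS gene related to Elf5, fell in Pcgf5KO with a log2 fold change of -0.93 ± 0.18 (adjusted p = 0.0281). These 3 calls were lost when any 1 of the 4 single-knockout libraries was left out (adjusted p up to 0.257). Map4k4 and Tnik, the other listed relatives of Nrk, were not called against WT. Map4k4 gave -0.35 in Pcgf5KO and -0.1 in DKO, and Tnik gave -0.01 and -0.6. The median log2 fold change of the paralogs was -0.08, -0.12 and -0.10 in Pcgf3KO, Pcgf5KO and DKO. Over all genes tested it was 0.002, 0.005 and 0.014.

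Of 25 other trophoblast genes listed, 20 passed the filter. In Pcgf3KO 1 was higher and 3 lower than WT, in Pcgf5KO 6 lower, and in DKO 1 higher and 5 lower, where 2.36%, 2.99% and 3.22% of all genes were called. Their median log2 fold change was -0.12, -0.51 and -0.30 in Pcgf3KO, Pcgf5KO and DKO, beside 0.002, 0.005 and 0.014 over all genes tested. It was above 0 for 8, 6 and 6 of the 20 genes. Their summed level was 1295 to 1327, 1040 to 1045 and 1063 to 1160 CPM, against 1882 in WT. Peg10, Krt8 and Krt18 made up most of the WT sum, at 700.7, 417.7 and 278.1 CPM. The keratin genes Krt8 and Krt18, whose filaments mark simple epithelia including trophectoderm and also endoderm, fell in each knockout group. Krt8 had 178.4 and 197.5 CPM in Pcgf3KO, 152.6 and 154.2 in Pcgf5KO, with 69.8 and 115.4 in DKO, against 417.7 in WT. Its log2 fold change was -1.15, -1.44 and -2.17 in Pcgf3KO, Pcgf5KO and DKO (adjusted p = 0.0239, 0.00949 and 0.00119), and that of Krt18 was -1.42, -1.53 and -1.97 (adjusted p = 0.0157, 0.0119 and 0.00288). The primitive endoderm and feeder sums given above were also highest in WT, and their part in the keratin levels was not tested.

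**Figure D3:**
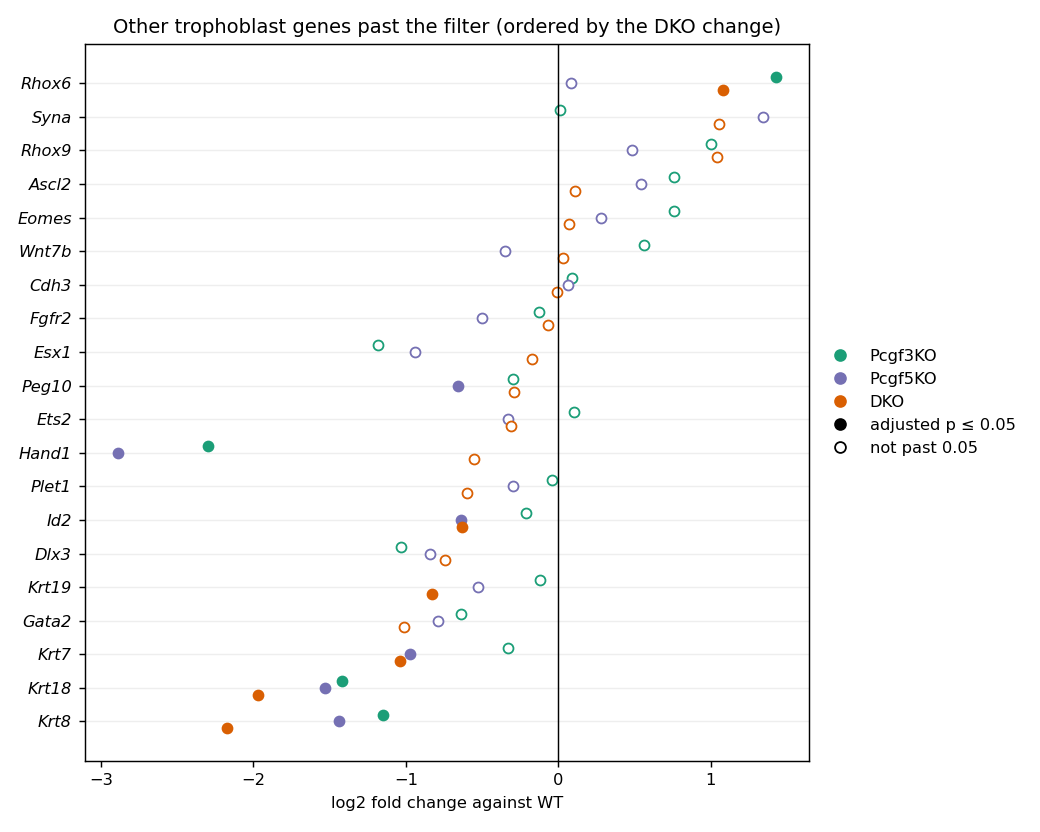
Log2 fold change against WT (log2 units) of the trophoblast genes that passed the filter, in Pcgf3KO, Pcgf5KO and DKO, with filled symbols for changes past the threshold. Krt8 and Krt18 lie below 0 past the threshold in each group, and Rhox6 lies above 0 past the threshold in Pcgf3KO and DKO.

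Rhox6, an X-linked homeobox gene of the placenta, was higher in Pcgf3KO and DKO, as Gjb5 was. It had 11.5 and 11.2 CPM in Pcgf3KO, 4.79 and 4.04 in Pcgf5KO, with 8.17 and 9.64 in DKO, against 4.21 in WT. It rose by 1.43 ± 0.22 in Pcgf3KO and 1.08 ± 0.22 in DKO (adjusted p = 0.012 and 0.0323), and Pcgf5KO was below Pcgf3KO by a log2 fold change of -1.35 ± 0.17 (adjusted p = 0.0202). Peg10, an imprinted gene that the mouse placenta needs, fell in Pcgf5KO (log2 -0.66 ± 0.09; adjusted p = 0.00752), to 441.6 and 445.2 CPM, against 700.7 CPM in WT.

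The other calls on the trophoblast list are named after their values were seen. Hand1, a factor of trophoblast giant cells and of mesoderm, had 7.81 and 10.9 CPM in Pcgf3KO, 6.98 and 5.18 in Pcgf5KO, with 16.0 and 46.4 in DKO, against 45.8 in WT. It fell in Pcgf3KO and Pcgf5KO (log2 -2.30 and -2.89; adjusted p = 0.0378 and 0.0196), and in DKO one library lay at the WT level (-0.55, adjusted p = 0.534). Id2 fell in Pcgf5KO (-0.64) and in DKO (-0.63), Krt7 in the same groups (-0.97 and -1.04), and Krt19 in DKO (-0.83; adjusted p = 0.0292 to 0.0427). Eomes, a T-box factor of trophoblast stem cells, gave 0.76, 0.28 and 0.07 in Pcgf3KO, Pcgf5KO and DKO and did not pass (adjusted p = 0.179, 0.611 and 0.908). Tpbpa and Prl3d1, markers of spongiotrophoblast and giant cells, had 0 counts in all 7 libraries, which allows up to 0.151 to 0.237 CPM by a floor of 3 counts, for counting error only.

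The Krt8 and Krt18 calls in DKO held in every alternative run, all with WT replicate 2 as the only WT library. Those in Pcgf3KO were lost when any 1 of the 4 single-knockout libraries was left out (adjusted p = 0.0517 to 0.203), and those in Pcgf5KO, with Peg10, without either Pcgf5KO library (0.114 to 0.146). Rhox6 was lost in Pcgf3KO without either library of that group (adjusted p = 0.103 and 0.115), and in DKO against WT without any 1 of the 4 (0.084 to 0.103), as was its difference between the single knockouts. Hand1 was lost in Pcgf3KO under DESeq2 and without any 1 of the 4, and in Pcgf5KO without either of its own libraries (adjusted p up to 0.265), and Id2, Krt7 and Krt19 without any 1 of the 4 (adjusted p up to 0.33).

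For each of the 8 genes, the 3 genes with the highest Pearson correlation of log2 CPM over the 7 libraries were sought among about 10566 well expressed genes. Over all candidates the 95th percentile of that correlation was 0.64 to 0.82, so values near 1 are the end of a wide distribution with 7 points. Nrk was closest to Sept11 (0.99), Tnfrsf10b (0.987) and F2r (0.978), and Gjb5 to Ildr1 (0.989), Parp4 (0.977) and Col26a1 (0.972). Cdx2 was closest to Mmp14 (0.994), Ripk4 (0.983) and Vash2 (0.981), and Tfap2a to Spsb1 (0.987), Lysmd2 (0.979) and Egr1 (0.977). Tfap2c was closest to Rundc3b (0.989), Mtmr7 (0.987) and Ralgds (0.976), and Elf5 to Pip4p1 (0.99), Pdzrn3 (0.985) and Bmp4 (0.979). Tead4 was closest to Jade3 (0.984), Ets2 (0.983), which is itself on the trophoblast list, and Cul2 (0.982), and Gata3 to Stam2 (0.999), Myo6 (0.991) and Nsmce2 (0.977).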

How the data were processed

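Poly-A RNA libraries were made with the NEBNext Ultra kit, which does not mark strand, per the labels' protocols. Each deposited table gives raw read counts by Ensembl gene for 1 library, which are whole numbers and were not normalised. Per the submitters' processing notes, TopHat2 2.0.12, Cufflinks 2.2.1, HTSeq 0.6.0 and mm10 are named, with no stated role; strand setting and annotation release: not given in the sources used here. No entry was without a gene (0), and 46488 of 47069 identifiers matched a symbol in GENCODE M21. Genes missing from the short WT replicate 1 table were treated as not measured.

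The 7 complete libraries of the 4 groups entered 1 fit in edgeR 4.0.16 (R 4.3.3; glmQLFit, glmQLFTest, TMM, filterByExpr with a minimum count of 10), with group as the only term and 3 residual degrees of freedom. The filter kept 15669 genes with 99.93% of the counts. Because WT counts as a group of 1 library, 1 library past the cutoff was enough to pass. A fit of all 8 libraries over the 8093 shared genes tested 2702 genes (4 residual degrees of freedom). The steps were tested on simulated data. CPM use TMM-scaled library sizes; ± is the standard error of a log2 fold change. Exon lengths and overlaps are from GENCODE M21, promoters from RefSeq.

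Alternatives were run for the libraries used, the scaling, the filter, a replicate block and the WT library, and each library was left out in turn; one of them was DESeq2 1.42.0, which sets some adjusted p to missing. The members and lists were chosen with earlier results of these data known. The text names the 8 genes, Pcgf3 and Pcgf5, up to 4 genes per list with the smallest p among those called against WT, the 4 most abundant feeder markers, and the 3 nearest genes by correlation; others are marked as chosen after their values were seen. Some genes that this rule gives are not reported here. Pairing by replicate number was not assumed in the main fit. The correlation of replicate differences between knockout groups was -0.01, 0.01 and 0.14, low values that do not settle whether samples were paired.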

Additional observations from a re-analysis of the deposited data

Results flagged for a closer look

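For Nrk, the effect of losing both genes differed from the sum of the effects of losing each, by a test of that difference added after seeing the data. Its DKO change from WT, -1.34, was above the sum of its changes in Pcgf3KO and Pcgf5KO, -1.17 and -1.73, by 1.56 ± 0.19 on the log2 scale (edgeR, adjusted p = 0.00568, over 15669 genes). Over the alternatives the value ran between 1.28 and 1.66. As given above, the call was lost without Pcgf3KO replicate 2 or Pcgf5KO replicate 1. The DKO libraries, at 15.2 and 14.97 CPM, lay between the 2 Pcgf3KO and the 2 Pcgf5KO libraries.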

How the results depend on the processing

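Counts of genes called depended on the libraries used. For Pcgf3KO, Pcgf5KO and DKO against WT, DKO against Pcgf3KO, DKO against Pcgf5KO and Pcgf5KO against Pcgf3KO they were 370, 468, 505, 272, 357 and 22, in that order here and below. All 8 libraries gave 149, 233, 219, 14, 64 and 5, with fewer genes tested. No filter gave 1105, 1222, 1474, 1355, 2312 and 224, and added calls of Cdx2 in Pcgf3KO and Pcgf5KO and of Elf5 and Tfap2c in Pcgf5KO against WT, of Elf5 in DKO against Pcgf5KO, and of Tfap2c, Tead4 and Nrk in Pcgf5KO against Pcgf3KO. WT replicate 1 in place of replicate 2, chosen after seeing the data, gave 51, 59, 94, 12, 13 and 3, with fewer genes tested. DESeq2 gave 804 for DKO against Pcgf5KO and 79 for Pcgf5KO against Pcgf3KO. The replicate block gave 499, 1532 and 62 for the 3 comparisons between knockouts and, as DESeq2 and all 8 libraries did, added a call of Tfap2c in Pcgf5KO against Pcgf3KO. Leaving out each library gave 46 to 3167, 37 to 4119, 165 to 5379, 7 to 5571, 3 to 6583 and 3 to 1909, low without a single-knockout library and high without a DKO library; the cause was not tested.

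Without DKO replicate 1, 5 of the 8 genes were lower in Pcgf5KO than in WT (Cdx2, Elf5, Tfap2c, Tead4 and Nrk), beside a background of 26.8%, and without DKO replicate 2 the same 5, beside 26.4%. Without DKO replicate 2, DKO was lower than WT for Cdx2, Gata3, Tead4 and Nrk, beside 34.5%. Some small differences changed sign. Tead4 in DKO against Pcgf5KO was 0.05 with total counts in place of TMM. Leaving out each library gave ranges across 0 for Tfap2a in DKO against Pcgf3KO (-0.47 to 0.25), Tfap2a in Pcgf5KO against Pcgf3KO (-0.38 to 0.05), Tfap2a in DKO against Pcgf5KO (-0.28 to 0.44), Gata3 in Pcgf3KO against WT (-0.31 to 0.15), Gata3 in DKO against Pcgf5KO (-0.26 to 0.37), Tead4 in DKO against Pcgf5KO (-0.07 to 0.02), Tfap2c in DKO against Pcgf3KO (-0.38 to 0.10), Tfap2c in DKO against WT (-0.04 to 0.44), Elf5 in DKO against WT (-0.80 to 0.51) and Elf5 in DKO against Pcgf3KO (-0.42 to 0.89). With 7 libraries none of these was called. At the ends of these ranges Tfap2c was called higher in DKO than in WT without DKO replicate 1 (0.44, adjusted p = 0.00135) and lower in DKO than in Pcgf3KO without DKO replicate 2 (-0.38, adjusted p = 7e-04). Leaving out WT replicate 2 left no comparison with WT over all genes. At 1 to 35 counts, Cdx2 and Tfap2a are limited by depth.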

Other observations

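Pluripotency genes, which keep ES cells undifferentiated, were called as higher where they were called against WT. All 10 listed genes passed the filter. Of these, 2 were higher in Pcgf3KO, 4 in Pcgf5KO and 2 in DKO, where 2.36%, 2.99% and 3.22% of all genes were called. Their median log2 fold change was 0.21, 0.40 and 0.17, beside 0.002, 0.005 and 0.014 over all genes tested. Their summed level was 3481 to 3593, 3745 to 3760 and 3208 to 3354 CPM, against 2972 in WT. Dppa5a rose by 0.74 in Pcgf3KO and 0.82 in Pcgf5KO (edgeR, adjusted p = 0.0106 and 0.00685), and Klf4 by 1.46 ± 0.23 in DKO (adjusted p = 0.0114). Fgf4 rose by 0.53, 0.48 and 0.56 in Pcgf3KO, Pcgf5KO and DKO (adjusted p = 0.0367, 0.0467 and 0.0262). The Dppa5a calls were lost without either library of their group (adjusted p up to 0.121) and those of Fgf4 without any 1 of the 4 single-knockout libraries (adjusted p up to 0.319). The Fgf4 calls in Pcgf3KO and Pcgf5KO were also lost with total counts in place of TMM. Tdgf1 rose by 0.53 in Pcgf5KO (adjusted p = 0.0286), and with WT replicate 1 in place of replicate 2 its value was 0.08; the call was also lost with all 8 libraries and without any 1 of the 4 single-knockout libraries.

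Mesoderm genes were called as lower where they were called against WT. Of 8 listed, 6 passed; 2 were lower in Pcgf3KO, 1 in Pcgf5KO, and 2 in DKO, where 2.36%, 2.99% and 3.22% of all genes were called. Tbx20 fell, with log2 fold changes of -1.45, -1.44 and -1.54 in Pcgf3KO, Pcgf5KO and DKO (adjusted p = 0.00488, 0.00532 and 0.00288); the calls in the single knockouts were lost without either library of the group (adjusted p up to 0.102). Kdr, a receptor gene of endothelial and blood precursors, had 12.4 and 11.5 CPM in Pcgf3KO, 21.4 and 26.3 in Pcgf5KO, with 8.70 and 12.6 in DKO, against 30.5 in WT. It fell in Pcgf3KO and DKO, with log2 fold changes of -1.35 and -1.51 (adjusted p = 0.012 and 0.00563). With WT replicate 1 in place of replicate 2 these values were -0.29 and -0.46, and neither was called (adjusted p up to 0.587). The Pcgf3KO call was also lost with all 8 libraries and without either Pcgf3KO library. Of 6 germ cell genes, 5 passed, and Prdm1 rose by 1.06 ± 0.18 in Pcgf3KO (adjusted p = 0.0171), a call lost without any 1 of the 4 single-knockout libraries (adjusted p up to 0.155). Of 6 surface ectoderm genes, which include tissues that use Tfap2a, 2 passed and 0 were called in any knockout against WT by edgeR or DESeq2; 1 had an unadjusted p under 0.05, in Pcgf3KO. Their summed level was 17.1 to 18.1 CPM in Pcgf3KO, 15.9 to 16.6 in Pcgf5KO and 11.5 to 13.1 in DKO, against 13.0 in WT. Most of the WT sum came from Grhl3, at 11.8 CPM.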
